A study of Mus musculus with 2 samples.

Results

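Regulatory T cells (Tregs) are the T cells that carry the transcription factor FOXP3 and restrain other lymphocytes, by taking up interleukin 2 through the receptor chain CD25, by stripping costimulatory ligands through CTLA-4 and by releasing inhibitory cytokines. Skin holds a resident Treg pool that is known for high CTLA-4, ICOS and OX40 and for products that act on tissue repair, amphiregulin among them. In allergic contact dermatitis (ACD), an eczema driven by T cells that recognize a hapten, Tregs are known to limit the reaction.

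The Tregs described here were chosen by their own unique molecular identifier (UMI) counts. A member held at least 1 UMI of *Cd3d*, *Cd3e* or *Cd3g*, at least 1 UMI of *Foxp3* and no UMI of *Cd8a* or *Cd8b1*, in a barcode with more than 200 and fewer than 5000 genes, no more than 25000 UMIs and under 8% mitochondrial UMIs. This gave 390 Tregs of 23878 kept cells, 26 in control skin and 364 in ACD skin. Because these values chose the members, *Foxp3*, the *Cd3* genes and the *Cd8* genes are not results below.

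The study profiled ear skin of male ICR mice, 7 to 8 weeks old, with 10x Genomics 3′ version 2 single-cell RNA-seq. The ACD animals had been sensitized on the back with 1.0% dinitrofluorobenzene (DNFB), a hapten, and challenged on the ears with 0.2% DNFB 6 days later. Their ears were sampled 60 hr after the challenge, and the control was labelled as healthy ear skin. The labels do not say whether the control animals were sensitized or given vehicle. There was 1 library per condition and the labels do not say how many animals went into each, so nothing below is a test between conditions. Intervals are exact 95% intervals and cover counting error only. The libraries kept 12213 of 12895 control barcodes and 11665 of 13163 ACD barcodes, at medians of 6850 and 7447 UMIs. The 2 libraries shared 50 barcodes, none of them a Treg. Levels are UMIs summed over the cells of a group per 1000000 UMIs of that group, and they are set side by side within a gene, not between genes.

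The label was checked first against Treg genes that the choice did not use. *Ctla4* encodes the inhibitory receptor CTLA-4, *Ikzf2* the transcription factor Helios and *Izumo1r* the folate receptor FR4, all known as Treg markers. In ACD skin, 336 of the 364 Tregs held a *Ctla4* UMI, 319 an *Ikzf2* UMI and 192 an *Izumo1r* UMI. All 3 markers were found together in 156 Tregs (42.9%), and none of them in 3. In control skin, 18 of the 26 Tregs held *Ctla4*, 21 held *Ikzf2* and 5 held *Izumo1r*, with all 3 in 3 cells and none in 1 cell. A *Cd4* UMI was found in 192 ACD Tregs (52.7%) and 9 control Tregs (34.6%). The Treg name was therefore kept in both libraries.

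The lower limit of 1 *Foxp3* UMI decided membership for many cells, since 19 of the 26 control Tregs and 180 of the 364 ACD Tregs held a single one. Just inside that limit, the 180 ACD cells with 1 *Foxp3* UMI had *Ctla4* in 89.4%, *Ikzf2* in 83.9% and *Izumo1r* in 47.2%. Just outside it, 2621 ACD cells with *Cd3*, no *Cd8* and no *Foxp3* UMI had *Ctla4* in 19.3%, *Ikzf2* in 33.0% and *Izumo1r* in 5.0%. With 2 *Foxp3* UMIs the shares were 94.0%, 89.0% and 58.0% of 100 cells, and with 3 or more they were 96.4%, 94.0% and 58.3% of 84 cells. In control skin, *Ctla4* was found in 84.2% of the 19 cells with 1 *Foxp3* UMI and in 2.53% of 950 cells with none, where *Ikzf2* was found in 23.9%. Above 1 UMI there were few control cells, and *Ctla4* was found in 2 of 4 cells with 2 *Foxp3* UMIs and 0 of 3 with 3 or more, and *Ikzf2* in 3 of 4 and 2 of 3. Among cartilage cells, which should lack *Foxp3*, 1 of 4895 control cells and 6 of 3058 ACD cells held a *Foxp3* UMI. These cells were chosen to hold no *Ptprc* or *Cd3* UMI. That choice can leave out barcodes with T cell RNA, so the free-RNA level may be higher than in them.

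The group set beside the Tregs was CD4 T cells, taken as cells with 2 or more *Cd3* UMIs, 1 or more *Cd4* UMI and no *Foxp3* or *Cd8* UMI (44 control and 678 ACD cells). This group was not free of Treg-marked cells, for 47 of the 678 ACD cells held *Ctla4*, *Ikzf2* and *Izumo1r* together. Tregs were shallower than CD4 T cells, with medians of 2822.5 against 5178.5 UMIs in control and 5140 against 6364 in ACD. The control Tregs held 117226 UMIs in all, so that 3 UMIs there made a level of 25.6, and the ACD Tregs held 2323919. Doublets were left in for the values below. Scrublet, a program that marks barcodes resembling 2 merged cells, marked 3 of the 26 and 25 of the 364 Tregs, beside 4.92% and 4.02% of all kept cells.

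Tregs made up a larger share of ACD than of control skin cells. They were 0.213% (0.139 to 0.312%) of 12213 control cells and 3.12% (2.81 to 3.45%) of 11665 ACD cells, a log2 ratio of 3.87 (3.30 to 4.51). Cells with a *Cd3* UMI, which include the Tregs, were also more numerous in ACD. Among cells with a *Cd3* UMI, Tregs were 2.61% (1.71 to 3.80%) of 996 control cells and 9.58% (8.66 to 10.6%) of 3801 ACD cells, a log2 ratio of 1.88 (1.3 to 2.51). Among cells with a UMI of *Ptprc*, which encodes the leukocyte antigen CD45, the log2 ratio was 1.79 (1.18 to 2.47). The ratio in favour of ACD thus held on every denominator and was smaller within T cells and within leukocytes.

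Tregs and CD4 T cells differed between the libraries by about the same factor, while CD8 T cells, those with 2 or more *Cd3* UMIs and a *Cd8a* or *Cd8b1* UMI but no *Foxp3*, differed by more. The share of kept cells was 14.7-fold higher in ACD for Tregs, 16.1-fold for CD4 T cells and 45.9-fold for CD8 T cells. There were 0.591 (0.349 to 0.981) Tregs per CD4 T cell in control and 0.537 (0.471 to 0.611) in ACD, intervals that overlap. Per CD8 T cell there were 1.44 (0.762 to 2.80) Tregs in control and 0.461 (0.406 to 0.523) in ACD, intervals that do not. Cells without a *Foxp3* UMI because of shallow reads are missing from all of these Treg counts, and control Tregs were the shallower ones. The part of depth in the shares was not tested.

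**Figure D1:**
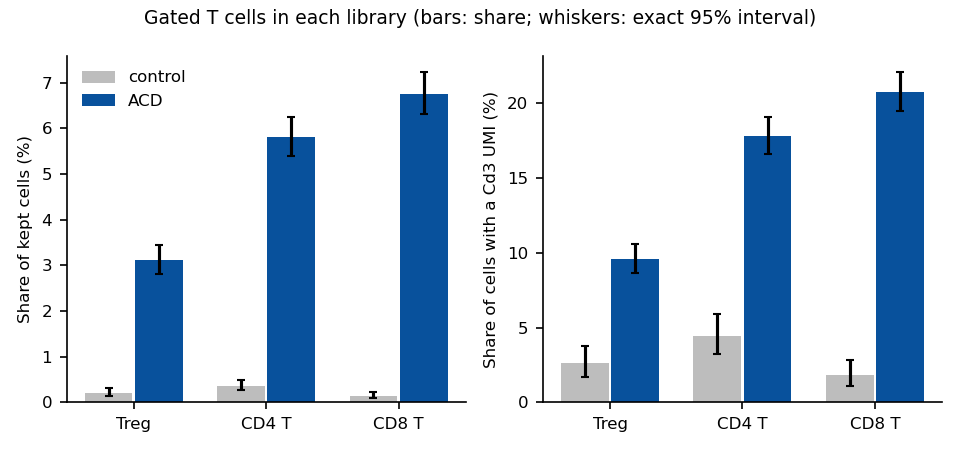
Share of kept cells (left) and of cells with a *Cd3* UMI (right), in percent, that were Tregs, CD4 T cells or CD8 T cells in the control and the ACD library, with exact 95% binomial intervals as whiskers. Tregs stood at 0.213% and 3.12% of kept cells and at 2.61% and 9.58% of *Cd3* cells, and CD8 T cells were the lowest group in control and the highest in ACD.

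Against CD4 T cells of the same ACD library, Tregs carried more of 10 of 18 Treg identity genes, of *Ikzf2*, *Ikzf3* and *Ikzf4*, of granzyme B and of amphiregulin, and less of 12 of 16 cytokines of conventional T cells. The comparison took in 8538 genes with 50 or more UMIs over both groups, leaving out the 7 genes of the gates. A gene was called at a 2-fold or larger difference of the level with 10 added to it, which holds back genes of low level. By that measure 103 genes (1.21%) were higher in Tregs and 111 (1.3%) lower, and the median log2 ratio of all genes was 0.09. The log2 ratios of named genes below are of the levels themselves, with nothing added.

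Of 18 Treg identity genes compared, 10 were called higher and none lower, with a list median of 1.17. *Ikzf2* (ENSMUSG00000025997, GRCm38 chr1:69531214-69687245, minus strand) was at 751 (602 to 925, 88 UMIs in 21 cells) in control Tregs and 811 (774 to 848) in ACD Tregs. In CD4 T cells it was at 101 (68.3 to 143) in control and 134 (124 to 144) in ACD. The Treg levels lay far above the CD4 levels in both libraries, and within Tregs the libraries overlapped. In ACD the log2 ratio of Tregs to CD4 T cells was 2.60 (2.47 to 2.73). *Ikzf4*, the gene of the related factor Eos, was at 79.2 in ACD Tregs and 14.6 in ACD CD4 T cells, a log2 ratio of 2.44 (2.04 to 2.84). *Ikzf3*, the gene of Aiolos, was at 91.2 against 23.0 (1.99, 1.66 to 2.32). *Ikzf1*, the gene of Ikaros itself, was the other way round, at 59.4 against 85.3 (-0.52, -0.81 to -0.24), and did not reach the 2-fold call.

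*Ctla4* (ENSMUSG00000026011, chr1:60887000-60915832, plus strand) was at 418 (309 to 553, 49 UMIs in 18 cells) in control Tregs and 850 (813 to 889) in ACD Tregs. In CD4 T cells it was at 101 (68.3 to 143) and 215 (202 to 228). Both groups had higher *Ctla4* in ACD, with log2 ratios of 1.02 (0.62 to 1.46) and 1.09 (0.58 to 1.66), and the Treg level stayed about 4 times the CD4 level (log2 1.99, 1.88 to 2.09, in ACD). *Izumo1r* (ENSMUSG00000031933, chr9:14885814-14903949, minus strand) was at 76.8 (35.1 to 146, 9 UMIs in 5 cells) in control Tregs, 182 (165 to 200) in ACD Tregs, 28.5 (24.1 to 33.4) in ACD CD4 T cells, and was not found in control CD4 T cells. *Il2ra*, which encodes CD25, was at 247 (166 to 355) in control Tregs and 290 (269 to 313) in ACD Tregs. It was at 51.9 and 97.8 in CD4 T cells, which gave a log2 ratio of 1.57 (1.40 to 1.74) in ACD.

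The tumor necrosis factor (TNF) receptor family members that costimulate Tregs were higher too. *Tnfrsf4* (OX40) was at 751 (602 to 925) in control and 1076 (1034 to 1119) in ACD Tregs, beside 282 and 457 in CD4 T cells. *Tnfrsf9* (4-1BB) was at 179 (111 to 274, 21 UMIs in 12 cells) and 441 (414 to 468), beside 55.2 and 116. *Tnfrsf18* (GITR) was at 358 (258 to 484) and 455 (428 to 484), beside 104 and 205. The Treg level was the higher one in each library for all 3 receptors, and the ACD value the higher one in each cell group, although the *Tnfrsf18* intervals of the 2 libraries overlapped within Tregs. The log2 ratio of Tregs to CD4 T cells in ACD was 1.24 for *Tnfrsf4*, 1.92 for *Tnfrsf9* and 1.15 for *Tnfrsf18*. *Icos*, another costimulatory receptor of activated T cells, differed less (860 against 583, log2 0.56, 0.48 to 0.64), and *Nrp1*, a surface marker of thymus-derived Tregs, was no higher in Tregs (46.0 against 51.7).

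**Figure D2:**
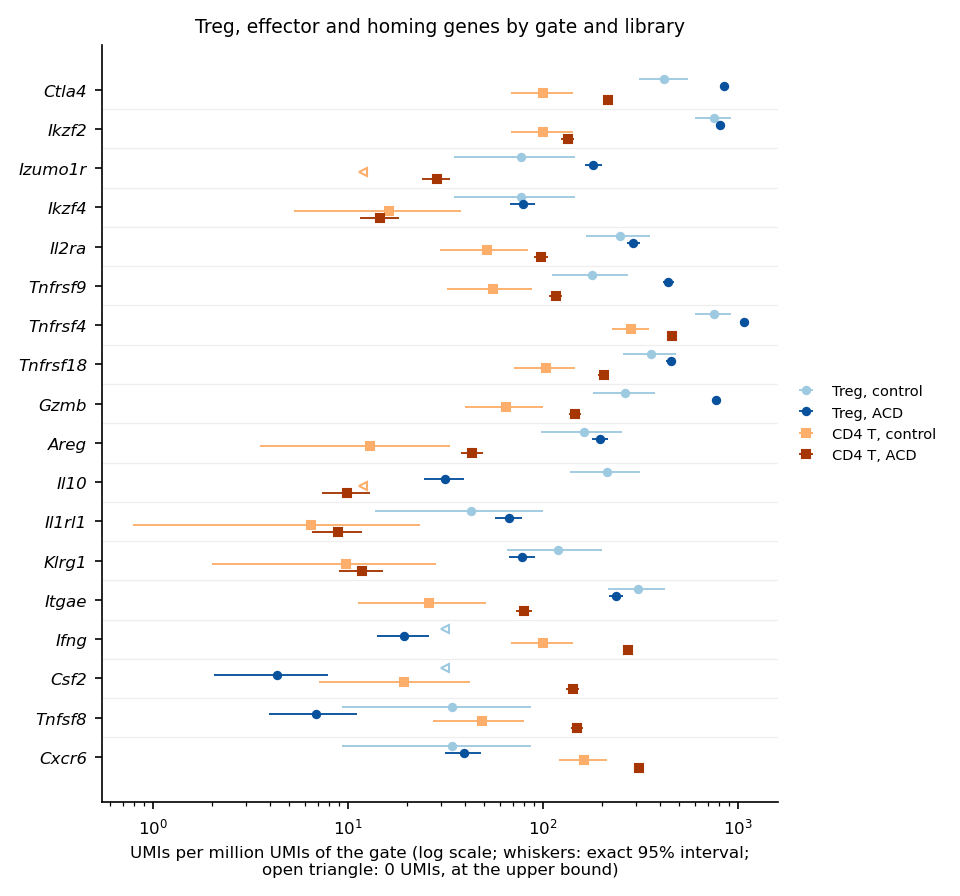
Levels, in UMIs per 1000000 on a log axis, of 18 genes in Tregs and CD4 T cells of the control and the ACD library, with exact 95% Poisson intervals as whiskers and open triangles for groups with 0 UMIs. In ACD, *Ikzf2* (811 and 134), *Ctla4* (850 and 215) and *Gzmb* (773 and 146) were higher in Tregs than in CD4 T cells, and *Ifng* (19.4 and 274.5), *Csf2* (4.30 and 142) and *Cxcr6* (39.2 and 312.5) lower.

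Marker shares ran the same way at matched depth. Each cell was thinned at random to 2000 UMIs, which left 350 of 364 ACD Tregs and 673 of 678 ACD CD4 T cells. *Ctla4* was then found in 78.0% (73.3 to 82.2%) of Tregs and 25.4% (22.2 to 28.9%) of CD4 T cells, and in 0.295% of cartilage cells as background. *Ikzf2* was found in 68.3% (63.1 to 73.1%) and 15.6% (12.9 to 18.6%), beside 0.918% of cartilage cells. Unthinned, the Treg shares were 92.3% and 87.6%, at median depths of 5140 UMIs for Tregs and 9587 for cartilage cells. *Itgae*, the gene of CD103, an integrin that binds epithelial cadherin, was found in 32.9% (28 to 38%) of thinned Tregs and 12.3% (9.94 to 15.1%) of CD4 T cells, and in 0.197% of cartilage cells.

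Among the products with which Tregs act on other cells, granzyme B and amphiregulin differed most from CD4 T cells. Of 15 suppressive mediators compared, 5 were called higher and 1 lower. Of 16 effector and tissue Treg genes, 6 were called higher and 1 lower. The lists share genes, and their medians were 0.32 and 0.70. The first of these medians changed sign, to -0.19, when cells were thinned to 2000 UMIs, so the members are better read singly than through the median.

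*Gzmb* (ENSMUSG00000015437, chr14:56258838-56262260, minus strand) encodes a serine protease of cytotoxic granules that Tregs can also use against target cells. It was at 264 (180 to 375, 31 UMIs in 9 cells) in control Tregs, 773 (738 to 810, 1797 UMIs in 216 cells) in ACD Tregs, 64.9 (39.6 to 100, 20 UMIs in 4 cells) in control CD4 T cells and 146 (135 to 156) in ACD CD4 T cells. ACD Tregs were also above ACD CD8 T cells, the usual granzyme B cells, which stood at 384. The log2 ratio of Tregs to CD4 T cells in ACD was 2.41 (2.29 to 2.53). Thinned, a *Gzmb* UMI was found in 48.9% (43.5 to 54.2%) of ACD Tregs, 12.2% (9.81 to 14.9%) of ACD CD4 T cells and 0.688% of cartilage cells. It was unevenly spread over Tregs, since the 36 cells richest in *Gzmb* held 55.3% of its UMIs, where the 36 richest in *Ikzf2* held 29.6%.

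*Areg* (ENSMUSG00000029378, chr5:91139599-91148432, plus strand) encodes amphiregulin, an epidermal growth factor receptor ligand. Its level was 162 (97.6 to 253, 19 UMIs in 7 cells) in control Tregs and 197 (179 to 216) in ACD Tregs, against 13 (4 UMIs in 2 cells) and 43.3 (37.9 to 49.3) in CD4 T cells. The libraries overlapped within Tregs, and Tregs were above CD4 T cells in each, by 2.18 (1.95 to 2.42) on the log2 scale in ACD. *Il1rl1* (ENSMUSG00000026069, chr1:40429570-40465415, plus strand) encodes ST2, the receptor of the alarmin interleukin 33. It was at 42.7 (5 UMIs in 5 cells) and 67.1 (57.0 to 78.5) in Tregs and at 6.49 (2 UMIs) and 8.93 (6.56 to 11.9) in CD4 T cells, a log2 ratio of 2.91 (2.43 to 3.41) in ACD. *Klrg1* (ENSMUSG00000030114, chr6:122270596-122282882, minus strand), a lectin receptor of highly differentiated Tregs, was at 119 (65.3 to 200, 14 UMIs in 8 cells) and 78.3 (67.4 to 90.6) in Tregs and at 9.73 (3 UMIs) and 11.8 (9.03 to 15.1) in CD4 T cells. These 3 genes were found in a minority of thinned ACD Tregs, *Areg* in 18.3%, *Il1rl1* in 14.9% and *Klrg1* in 10.3%, and in 3.86%, 1.63% and 1.63% of CD4 T cells. In cartilage cells *Areg* was found in 0.0983%, *Il1rl1* in 0.0328% and *Klrg1* in 0 of 3051, which allows a share of up to 0.0983%.

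**Figure D3:**
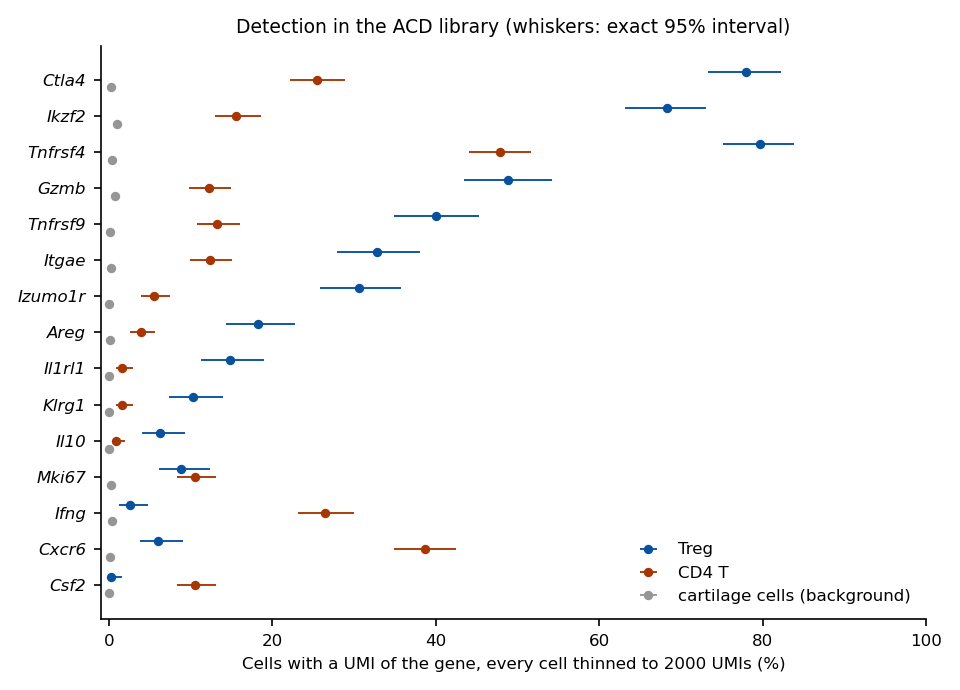
Share of ACD cells, in percent, with a UMI of a gene after thinning to 2000 UMIs, in Tregs, in CD4 T cells and in cartilage cells as background, with exact 95% binomial intervals as whiskers. Tregs stood at 78.0% for *Ctla4*, 48.9% for *Gzmb* and 2.57% for *Ifng*, CD4 T cells at 25.4%, 12.2% and 26.4%.

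Windows of 250 bases upstream of RefSeq start sites (GRCm38.p6, given 5′ to 3′ on the strand of the gene) are shown for 3 genes that set the Tregs apart here, to lay their differences beside the sequence that FOXP3 and T cell activation factors are known to read. Capitals mark the matched letters, and each window was searched on both strands for GTAAACA (a forkhead motif), TGANTCA (an AP-1 motif) and GGGANTTCC (an NF-kB motif). The first is the inner of 2 start sites of *Il1rl1*, chr1:40439379-40439628, plus strand, with 1 forkhead match at bases 117 to 111 before the start. The other, outer *Il1rl1* window, chr1:40429320-40429569, held no match. The second is *Gzmb*, chr14:56262335-56262584, minus strand, with 1 AP-1 match at bases 58 to 52 before the start. The third is *Ctla4*, chr1:60908775-60909024, plus strand, with no match.
Il1rl1: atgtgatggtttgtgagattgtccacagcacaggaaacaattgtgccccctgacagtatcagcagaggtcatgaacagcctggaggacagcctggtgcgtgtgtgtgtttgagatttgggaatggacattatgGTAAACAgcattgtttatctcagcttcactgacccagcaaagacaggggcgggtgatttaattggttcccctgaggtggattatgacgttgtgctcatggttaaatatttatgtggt
Gzmb: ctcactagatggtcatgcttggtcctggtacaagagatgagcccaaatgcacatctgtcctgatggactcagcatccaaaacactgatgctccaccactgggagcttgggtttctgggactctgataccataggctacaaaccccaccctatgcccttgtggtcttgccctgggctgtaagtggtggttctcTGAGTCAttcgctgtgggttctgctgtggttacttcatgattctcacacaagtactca
Ctla4: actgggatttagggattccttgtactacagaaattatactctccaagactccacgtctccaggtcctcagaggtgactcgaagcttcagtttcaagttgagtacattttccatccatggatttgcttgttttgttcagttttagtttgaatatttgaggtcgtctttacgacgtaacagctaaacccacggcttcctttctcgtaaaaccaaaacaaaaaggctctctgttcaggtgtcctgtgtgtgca

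A match is a description of letters, not a binding site, and such matches were common. For the shares that follow, the promoter window of each gene was searched in full, including bases after the start site. It was thus longer than the upstream windows shown above, so the shares are no exact background for them. The forkhead motif was found for 4.05% of 27025 genes with a promoter window, the AP-1 motif for 8.97% and the NF-kB motif for 1.92%. Of the 20 Treg identity genes, 14 had a promoter window, and 0 of these held the forkhead motif. The AP-1 and the NF-kB motif were each found for 1 of the 14, *Tnfrsf9* in both cases. Of the 15 genes highest in Tregs against CD4 T cells in ACD, 11 had a promoter window. Among these the forkhead motif was found for 1 (*Il1rl1*) and the AP-1 motif for 1 (*Gzmb*). Of the 15 lowest, 13 had a window, with the forkhead motif for 1 (*Ifitm1*) and the AP-1 motif for 1 (*Hbb-bs*). The windows with a match shown above are thus not typical of the highest genes.

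*Il10*, the gene of the inhibitory cytokine interleukin 10, was in ACD Tregs at 31.4 (24.6 to 39.5, 73 UMIs in 44 cells) and in ACD CD4 T cells at 9.88 (7.38 to 13), a log2 ratio of 1.67 (1.14 to 2.21). In control Tregs it was at 213 (138 to 315), but these 25 UMIs came from 5 cells, 15 of them from a single one, and without that cell the level was 87.9. The log2 ratio of ACD to control within Tregs was -2.76 (-3.44 to -2.05), and it ran from -3.12 to -1.33 over the alternatives. As a share of thinned cells, *Il10* was found in 4 of 21 control Tregs (5.45 to 41.9%) and 22 of 350 ACD Tregs (3.98 to 9.36%), intervals that overlap. *Tgfb1*, the gene of transforming growth factor beta 1, was at 307 (215 to 425) in control and 247 (227 to 268) in ACD Tregs and also at 247 in ACD CD4 T cells. Of the partners in its activation, *Itgb8* was at 27.5 in ACD Tregs against 7.22 in ACD CD4 T cells, and *Itgav* at 123 against 43.5. *Il1r2*, the decoy receptor of interleukin 1, was at 85.2 (73.7 to 97.9) against 27.2 (22.9 to 32.0). *Tnfrsf1b*, the gene of TNF receptor 2, was at 158 against 77.3. *Lag3* and *Ebi3*, named in Treg suppression, were at 17.6 against 17.7 and at 31.0 against 16.9.

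The transcription factors of effector lineages separated the groups less evenly. Of 34 T cell transcription factors compared, 4 were called higher in Tregs (*Ikzf2*, *Ikzf3*, *Ikzf4*, *Prdm1*) and 3 lower (*Tbx21*, *Tcf7*, *Bhlhe40*), at a median of 0.23. *Tbx21*, the gene of the type 1 factor T-bet, was at 8.61 (5.26 to 13.3) in ACD Tregs and 36.7 (31.7 to 42.2) in ACD CD4 T cells. *Tcf7*, a factor of naive and memory-like T cells, was at 11.2 (7.31 to 16.4) and 62.9 (56.3 to 70.0). *Gata3* and *Rora*, type 2 and tissue factors that skin Tregs are known to carry, were at 139 and 513 in ACD Tregs against 157 and 449 in ACD CD4 T cells.

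Cytokines of conventional T cells were low in Tregs. Of 16 such genes compared, 12 were called lower, none was called higher, and the median was -1.54. *Ifng* (ENSMUSG00000055170, chr10:118441046-118445892, plus strand), the gene of interferon gamma, was not found in control Tregs and was at 19.4 (14.1 to 25.9, 45 UMIs in 28 cells) in ACD Tregs. In CD4 T cells it was at 101 (68.3 to 143) in control and 274.5 (261 to 289) in ACD. The ACD log2 ratio of Tregs to CD4 T cells was -3.83 (-4.29 to -3.40). Thinned, *Ifng* was found in 2.57% (1.18 to 4.83%) of Tregs, 26.4% (23.2 to 30%) of CD4 T cells and 0.426% (0.227 to 0.728%) of cartilage cells. Tregs thus lay above the cartilage cells and far below the CD4 T cells. *Csf2* (ENSMUSG00000018916, chr11:54247271-54249667, minus strand), the gene of the growth factor GM-CSF, was found with 10 UMIs in 3 ACD Tregs and 748 UMIs in 126 ACD CD4 T cells, levels of 4.30 and 142.

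Helper-cell ligands showed the same direction. *Cd40lg*, which activates B cells and dendritic cells, was at 6.45 (3.61 to 10.6) in ACD Tregs and 49.0 (43.2 to 55.4) in ACD CD4 T cells. *Tnfsf11* (RANKL) was at 7.75 (4.59 to 12.2) and 66.7 (59.9 to 74.0), and *Tnfsf8* (CD30 ligand) at 6.88 (3.94 to 11.2) and 150 (140 to 161). *Cd40lg* is also a marker of the CD4 T cells, and no cell group was chosen by it. The type 17 genes were nearly absent from Tregs, with 1 UMI of *Il17a* beside 76 in CD4 T cells and 2 UMIs of *Il22* beside 333, of which 163 lay in 1 CD4 T cell. The chemokine *Ccl1* had 2 UMIs in Tregs and 543 in CD4 T cells, 202 of them in 1 cell. *Tnf* (31.8 against 59.5), *Lta*, *Ccl5* (55.9 against 76.9) and *Xcl1* did not reach the 2-fold call. The *Xcl1* UMIs of Tregs lay mostly in a single cell, 45 of 61.

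Tregs and CD4 T cells also differed in the receptors that place T cells in tissue. Of 20 homing and retention receptors compared, 5 were called higher in Tregs (*Ccr2*, *Ccr4* and *Itgae* among them) and 1 lower (*Cxcr6*), at a median of 0.38. *Cxcr6* (ENSMUSG00000048521, chr9:123806475-123811760, plus strand), a receptor of resident T cells, was at 34.1 (4 UMIs) in control and 39.2 (31.5 to 48.1) in ACD Tregs, against 162 (120 to 214) and 312.5 (298 to 328) in CD4 T cells. The log2 ratio in ACD was -3.00 (-3.32 to -2.69), and thinned shares were 6.0% (3.75 to 9.03%) and 38.6% (34.9 to 42.4%), with 0.164% in cartilage cells. *Ccr2*, the receptor of monocyte chemoattractants, was at 217 (198 to 237) in ACD Tregs and 95 (86.8 to 104) in ACD CD4 T cells, and *Ccr4*, a skin-homing receptor, at 40.4 (32.7 to 49.5) and 15 (11.9 to 18.7). *Ccr8*, known from skin Tregs of other settings, was at 5.59 in ACD Tregs and was not found in control Tregs. Thinned, it was found in 1 of 350 ACD Tregs (0.00723 to 1.58%) and 7 of 673 ACD CD4 T cells (0.419 to 2.13%), intervals that overlap. The 0 of 21 thinned control Tregs allows a share of up to 14.3%.

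Cytokine receptors differed in both directions. *Il6st*, the shared signalling chain of the interleukin 6 family, was at 95.1 (83.0 to 108) in ACD Tregs against 39.5 (34.3 to 45.3) in ACD CD4 T cells. A pair of receptor chains for the type 1 cytokines interleukin 12 and interleukin 18 were called lower, *Il12rb2* at 8.61 (5.26 to 13.3) against 32.5 (27.8 to 37.7) and *Il18rap* at 27.1 (20.8 to 34.7) against 74.3 (67.1 to 82.0). This did not hold for all receptors of such cytokines, since *Ifngr1*, the receptor of interferon gamma, was at 380 (355 to 405) against 289 (275 to 304), and *Il12rb1*, the partner chain of *Il12rb2*, at 15.9 (11.2 to 21.9) against 11 (8.37 to 14.2). Of 17 receptors of these families compared, 3 were called higher and 2 lower, at a median of 0.38. In the interleukin 2 and STAT5 list, 1 of 15 genes was called higher (*Il2ra*) and 1 lower (*Bcl2*, a survival factor, at 21.1 against 70.3), at a median of 0.11.

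Several lists of general cell programmes held no calls. Among all 8538 genes 1.21% were called higher and 1.3% lower, so few calls would fall in lists of this length. For nuclear factor kappa B signalling 0 of 20 genes were called in either direction (median 0.35), for glycolysis and hypoxia 0 of 18 (0.05), for lipid and cholesterol handling 0 of 15 (0.05), for heat-shock genes 0 of 11 (-0.11) and for immediate-early genes 0 of 19 (0.16, a median that fell below 0 under some alternatives). Of 18 T cell receptor signalling genes 1 was called lower, at a median of -0.18, and of 15 genes of the transforming growth factor beta and retinoid response 2 were called higher, at 0.31. Among 20 costimulatory and inhibitory receptors 5 were called higher and 1, *Pdcd1*, lower (12.9 against 52.8). Cell cycle genes had a median of -0.67, with 3 of 25 called lower. The proliferation marker *Mki67* was at 92.5 (80.6 to 106) in ACD Tregs and 107 (98.3 to 116) in ACD CD4 T cells, and was found in 8.86% (6.10 to 12.3%) and 10.6% (8.33 to 13.1%) of thinned cells, with 0.262% in cartilage cells.

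**Figure D4:**
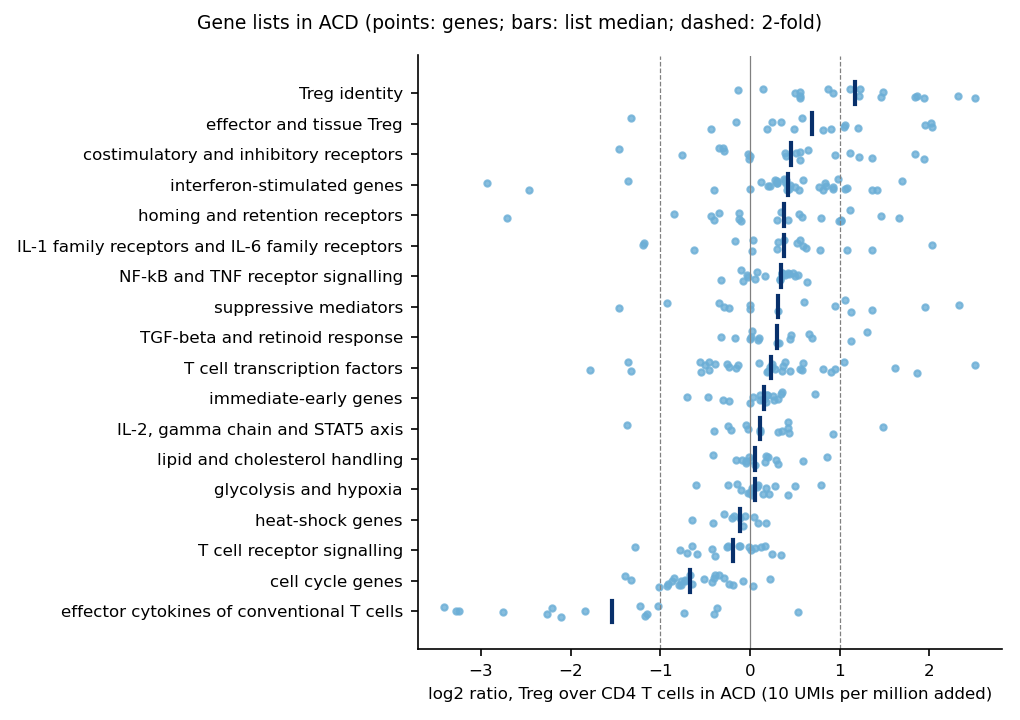
Log2 ratio of ACD Tregs to ACD CD4 T cells, with 10 UMIs per 1000000 added, for single genes (points) grouped by list, with the list medians as bars and dashed lines at 2-fold. Treg identity genes had the highest median (1.17) and conventional T cell cytokines the lowest (-1.54), with 1 cytokine point, *Xcl1*, above 0.

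The extremes of the ranking mixed Treg genes with genes that a single cell carried. Of the 15 genes highest in Tregs, 8 were *Ikzf2*, *Gzmb*, *Izumo1r*, *Il1rl1*, *Klrg1*, *Areg*, *Ctla4* and *Ikzf4*. The other 7 (*S100a9*, *S100a8*, *Chil1*, *Krt15*, *Spp1*, *Ccl21a*, *Angptl7*) are known from other cell types, among them neutrophils, chondrocytes, keratinocytes, myeloid cells and lymphatic endothelium. For *S100a9*, 317 of 323 UMIs lay in 1 Treg barcode, and for *Ccl21a* 870 of 883. Without that barcode the Treg levels were 2.59 and 5.63. *Chil1* had 704 of 1217 UMIs in 1 barcode. At the low end, *Hbb-bs* led through 1 CD4 T cell barcode with 5988 of 7354 UMIs, and *Acta1* through 1 with 339 of 340. The *Ifitm* genes, *Ctsw* (21.5 against 256) and *Klrd1* (16.4 against 137), the last 2 known from cytotoxic lymphocytes, were also among the 15 lowest.

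Other cell types' RNA was measured over whole marker lists. Fibroblast and cartilage markers summed to 10015 in control Tregs, 5244 in ACD Tregs, 11564 in control and 4953 in ACD CD4 T cells, with 1 of 12 markers at 0 in control Tregs and none at 0 in the others. Myeloid and antigen-presenting markers summed to 2227 and 2257 in Tregs against 1567 and 1209 in CD4 T cells, with 14 of 16 at 0 in control Tregs and 3 of 16 in ACD Tregs. Keratinocyte markers summed to 42.7 and 199 in Tregs, natural killer and innate lymphoid markers to 409 and 330, endothelial markers to 51.2 and 68.0, B cell markers to 0 and 12.5, and erythrocyte markers to 68.2 and 102 against 84.4 and 2726 in CD4 T cells. Gamma delta T cell markers, 9 of the 15 listed being present in the files, summed to 25.6 and 121. The natural killer and innate lymphoid list holds *Gata3* and *Il1rl1*, which Tregs express. The part of such RNA in the ratios was not tested. When cells with over 1% of other-lineage UMIs were left out, 22 control and 332 ACD Tregs remained. The ACD ratios to CD4 T cells of *Ikzf2*, *Ctla4*, *Gzmb*, *Areg*, *Il1rl1*, *Klrg1*, *Ifng*, *Csf2* and *Cxcr6* then kept their direction. Those of *Chil1*, *Krt15*, *Spp1*, *Angptl7* and *Coch* changed direction. This setting does not remove such RNA from the cells that remained.

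Within Tregs, ACD was set against control over 5484 genes with 50 or more UMIs, with 50 added to each level because the control group is small. By that measure 59 genes (1.08%) were 2-fold or more higher in ACD and 73 (1.33%) lower, with a median of -0.00. The counts and their balance depend on the number added, and with 10 added instead 412 genes were higher and 285 lower. For CD4 T cells the same comparison took in 7693 genes, of which 24 (0.312%) were higher and 87 (1.13%) lower. Because 26 cells carry the control side, many of these calls rest on few UMIs, and control counts are given with the genes described.

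Of the lists compared, interferon-stimulated genes had the most calls toward ACD. The markers of myeloid and antigen-presenting cells had a larger share called higher in Tregs, 4 of 7, at a median of 1.35. Of 31 interferon-stimulated genes compared in Tregs, 7 were called higher (*Gbp2*, *Igtp*, *Iigp1*, *Bst2*, *Ly6a* and *Psmb9* among them) and none lower, at a median of 0.71. In CD4 T cells 1 of 33 was called higher and none lower, at 0.37. The difference between these medians was not tested. *Ly6a* (ENSMUSG00000075602, chr15:74994877-74998031, minus strand), the gene of the interferon-inducible surface protein Sca-1, was at 76.8 (35.1 to 146, 9 UMIs in 6 cells) in control Tregs and 877 (840 to 916, 2039 UMIs in 270 cells) in ACD Tregs. In CD4 T cells it was at 509 (433 to 596) and 875 (850 to 901). Control Tregs were the low group, and the other groups differed among themselves by less than a factor of 2. The log2 ratio of ACD to control was 3.51 (2.59 to 4.65) in Tregs and 0.78 (0.55 to 1.02) in CD4 T cells.

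*Igtp*, an interferon-inducible GTPase, was at 17.1 (2 UMIs) in control and 216 (197 to 235) in ACD Tregs, a log2 ratio of 3.66 (1.80 to 6.71). The guanylate-binding proteins, GTPases of the same defence, showed the same order, with *Gbp2* at 25.6 (3 UMIs) and 177 (160 to 195) and *Gbp3*, which did not reach the call, at 51.2 (6 UMIs) and 141 (126 to 157). *Iigp1* was not found in control Tregs and had 137 UMIs in 37 ACD Tregs, which makes it at least 2.30-fold higher against a floor of 3 UMIs in the control group. *Psmb9*, a subunit of the immunoproteasome, was at 51.2 (6 UMIs) and 225 (206 to 245), and *Bst2*, a membrane tether of viruses, at 17.1 (2 UMIs) and 89.9 (78.2 to 103). *Ly6a* and *Igtp* were among the 10 genes highest in ACD against control Tregs. So was *AW112010*, an interferon-responsive transcript, at 239 (28 UMIs) and 920 in Tregs and 153 and 705 in CD4 T cells. *Chil1*, *Ccl21a*, *S100a9*, *Wif1*, *H2-Ab1* and *Clu*, also among the 10, are known mostly from stromal, myeloid and antigen-presenting cells. Of these, control Tregs held 4 UMIs of *Wif1*, 2 of *Clu* and none of the other 4.

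*Gbp2* was also called higher in Tregs against CD4 T cells inside ACD skin. Of 34 interferon-stimulated genes compared there, 5 were called higher (*Gbp2*, *Gbp3*, *Gbp5* and *Zbp1* among them) and 3 lower, at a median of 0.42. The lower ones were *Ifitm1*, *Ifitm2* and *Ifitm3*, genes of membrane proteins that block virus entry. *Ifitm1* was at 102 (12 UMIs in 3 cells) in control and 107 (93.8 to 121) in ACD Tregs, and at 169 (126 to 221) and 884 (859 to 909) in CD4 T cells. Single cells held 9 of the 12 control Treg UMIs and 148 of the 248 ACD Treg UMIs. Without those cells the Treg levels were 28.1 in control and 43.3 in ACD. *Ifitm2* was at 409 (302 to 543) and 297 (276 to 320) in Tregs against 1132 (1017 to 1258) and 1679 (1644 to 1715). The 2 branches of the list thus ran in opposite directions between the cell groups, with log2 ratios in ACD of 1.55 (1.34 to 1.77) for *Gbp2* and -3.05 (-3.24 to -2.87) for *Ifitm1*.

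**Figure D5:**
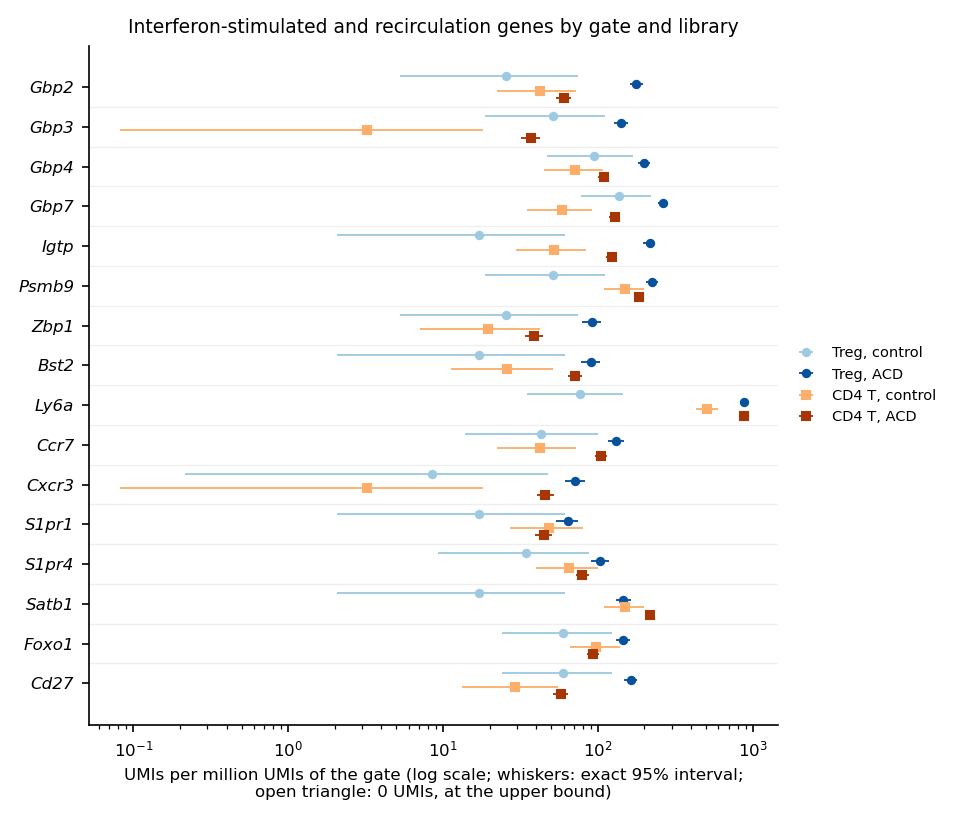
Levels, in UMIs per 1000000 on a log axis, of interferon-stimulated and recirculation genes in Tregs and CD4 T cells of the control and the ACD library, with exact 95% Poisson intervals as whiskers. ACD Tregs lay above control Tregs for *Ly6a* (877 and 76.8), *Igtp* (216 and 17.1) and *Ccr7* (131 and 42.7), and control Tregs had the widest intervals for most genes.

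Of 18 homing and retention receptors compared in Tregs, 2 were called higher in ACD and 1, *Cxcr4*, lower (162, 97.6 to 253, in control and 54.2, 45.2 to 64.6, in ACD), at a median of 0.23. *Cxcr3*, the receptor of interferon-induced chemokines, had 1 UMI in control Tregs (8.53) and stood at 71.4 (61.0 to 83.2) in ACD Tregs. The log2 ratio of ACD to control was 3.07 (0.57 to 8.38), with a wide interval from the single control UMI. Below the 2-fold call, *S1pr1*, which lets T cells leave tissue, was at 17.1 (2 UMIs) and 63.7 (53.8 to 74.8), and *Ccr7*, the lymph node receptor, at 42.7 (13.8 to 99.5, 5 UMIs in 3 cells) and 131 (117 to 147). The intervals of the 2 libraries overlapped for *S1pr1* and did not for *Ccr7*. Thinned, *Cxcr3* was found in 0 of 21 control Tregs, which allows a share of up to 14.3%, and in 15.1% (11.6 to 19.3%) of ACD Tregs, so the shares were not separable at this depth. *Ccr7* was found in 20.9% (16.7 to 25.5%) of thinned ACD Tregs and 17.2% (14.5 to 20.3%) of ACD CD4 T cells, with 0.131% in cartilage cells, and the Treg and CD4 intervals overlapped.

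*Cd27* and *Foxo1*, a costimulatory receptor and a factor of less differentiated T cells, were at 59.7 (24.0 to 123, 7 UMIs) and 59.7 (7 UMIs) in control and at 163 (147 to 180) and 146 (131 to 162) in ACD Tregs, both below the 2-fold call. *Satb1*, a chromatin organizer of T cells, had 2 UMIs in 1 control Treg and stood at 146 (131 to 163) in ACD Tregs. *Gzmb* and *Tnfrsf9*, described above against CD4 T cells, were called higher in ACD Tregs, as was *Satb1*. The log2 ratios were 1.55 (1.04 to 2.11) for *Gzmb* and 1.3 (0.68 to 2.00) for *Tnfrsf9*. Thinned, *Gzmb* was found in 6 of 21 control Tregs (11.3 to 52.2%) and 48.9% (43.5 to 54.2%) of ACD Tregs. *Tnfrsf9* was found in 7 of 21 (14.6 to 57.0%) and 40.0% (34.8 to 45.3%). Both pairs of intervals overlapped. A single control Treg held 15 *Gzmb* UMIs, and without the richest cell of each library the levels were 153 and 745. *Tnfrsf9* was the call within the Treg identity list, 1 of 17 genes, whose median was 0.20. No gene of the effector and tissue Treg list was called higher in ACD, and 2 of 14 (*Il10*, *Penk*) were called lower, at a median of -0.35. *Penk*, a precursor of enkephalins that cartilage cells also carried (53.5% of thinned ACD cartilage cells), had all of its 39 control Treg UMIs in 1 cell.

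Lower medians in ACD were found for immediate-early and cell cycle genes, and 3 of 18 immediate-early genes (*Jun*, *Klf4*, *Klf6*) were called lower in Tregs and none higher. *Jun* was at 1638 (1414 to 1887) in control and 747 (712 to 783) in ACD Tregs and *Fos*, below the 2-fold call, at 1689 (1462 to 1941) and 871 (834 to 910). CD4 T cells showed the same order, *Jun* at 1366 and 584, and the list medians were -0.61 over 18 genes in Tregs and -0.55 over 19 in CD4 T cells. These genes are known to respond to tissue dissociation, and its part here was not tested. *Mki67* was at 230 (152 to 335) in control Tregs, with 27 UMIs in 5 cells, and 92.5 in ACD Tregs. Of those 27 UMIs 17 lay in 1 cell, and without the richest cell of each library the levels were 95.5 and 82.9. Thinned, it was found in 3 of 21 control Tregs (3.05 to 36.3%) and 8.86% of ACD Tregs, intervals that overlap. The cell cycle list had 5 of 18 genes called lower and a median of -0.63, which was 1.05 when members also had to pass the *Cd4* and *Cd3* limits of the CD4 group (8 control cells).

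The 10 genes lowest in ACD against control Tregs were *Coch*, *Hmox1*, *Prss23*, *Igfbp5*, *Meg3*, *Igfbp2*, *Nrn1*, *Gas6*, *Adamts1* and *Enpp2*, and most are known from fibroblasts and other stromal cells. Single control barcodes held 57 of 60 UMIs of *Coch*, 45 of 47 of *Hmox1* and all 40 of *Prss23*. The fibroblast and cartilage sum given above was also higher in control Tregs (10015 beside 5244), with 5 of 11 markers called lower and 3 called higher in ACD, *Acan* among the latter. The part of that RNA was not tested. *Nrn1*, the gene of neuritin, a product known from Tregs, was spread more widely, over 10 control Tregs. It was at 205 (131 to 305) in control Tregs and 12.5 (8.36 to 17.9) in ACD Tregs, and at 3.24 (1 UMI) and 10.1 (7.54 to 13.2) in CD4 T cells. Other genes with lower ACD levels in Tregs, all below the 2-fold call, were *Rora* (990 and 513), *Id2* (657 and 338) and *Cish* (290 and 128), the last a feedback inhibitor of interleukin 2 signalling.

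Within ACD Tregs the genes were not found in the same cells alike. The 350 thinned ACD Tregs were split by whether they held a UMI of a gene, and the shares with another gene are given as a description of 1 library. Of 64 Tregs with *Areg*, 28.1% (17.6 to 40.8%) held *Il1rl1*, against 11.9% (8.38 to 16.2%) of 286 without. *Itgae* was held by 50% (37.2 to 62.8%) of the cells with *Areg* and 29.0% (23.8 to 34.7%) of those without. The gene of the interleukin 7 receptor, *Il7r*, was held by 37.5% (25.7 to 50.5%) and 20.6% (16.1 to 25.8%), and *S1pr1*, by contrast, by 4.69% (0.977 to 13.1%) and 16.1% (12.0 to 20.9%). The intervals of cells with and without *Areg* did not overlap for *Il1rl1* and *Itgae*, and did for *Il7r* and *S1pr1*.

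Over all 160 pairs the intervals were apart for 12. These were 4 of 20 for the split by *Itgae*, 2 of 20 each for *Areg*, *Klrg1*, *Il1rl1* and *Mki67*, and 0 of 20 for *Ccr7*, *Penk* and *Il10*. Pairs of split genes are counted from each side, so they are not separate observations. *Areg* with *Il1rl1*, *Areg* with *Itgae* and *Itgae* with *Mki67* stand among the 12 from both sides. Of 115 Tregs with *Itgae*, 27.8% (19.9 to 37.0%) held *Areg* and 60% (50.5 to 69.0%) *Gzmb*, against 13.6% (9.50 to 18.7%) and 43.4% (37 to 50%) of 235 without. Of 36 Tregs with *Klrg1*, 69.4% (51.9 to 83.7%) held *Gzmb*, against 46.5% (40.9 to 52.2%) of 314 without, and none held *S1pr1*, which allows up to 8.33%, against 15.6% (11.8 to 20.1%). The *Gzmb* intervals of that split overlapped, and those of the *S1pr1* shares did not. Of 31 Tregs with *Mki67*, 58.1% (39.1 to 75.5%) held *Itgae*, against 30.4% (25.4 to 35.8%) of 319 without, and again none held *S1pr1*, which allows up to 9.68%, against 15.4% (11.6 to 19.8%). For *Il10*, with 22 cells, the intervals of *Areg*, *Gzmb* and *Itgae* in cells with and without it overlapped.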

How the data were processed

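Single-cell RNA-seq of mouse ear skin gave 1 control and 1 ACD library. The authors deposited raw UMI counts per gene and barcode, made per the submitters' processing notes with Cell Ranger 3.1.0 on mm10, with 27998 genes. The paper's methods name another Cell Ranger version. The deposited counts were read with Python 3.11.15, numpy 2.4.6, scipy 1.17.1 and pandas 2.3.3, with scanpy 1.11.5 for Scrublet and matplotlib 3.10.9 for plots. The study's limits on genes and mitochondrial share were applied. Its UMI limit, which its methods print as a minimum, was applied as a maximum of 25000, and more cells were kept in each library than the study states. Cells were then gated on single genes. No clusters were made. Doublets were kept, with Scrublet calls (expected rate 10%, seed 7) left out as an alternative.

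UMIs were summed per group and divided by the group's total. Ratios have exact conditional binomial intervals, levels exact Poisson intervals and shares exact Clopper-Pearson intervals, at 95%. A count of 0 is given the limit that 3 counts would set. The intervals cover counting error only, since there is 1 library per condition. Genes with 50 or more UMIs over both groups were compared, with 10 or 50 added to each level for calls at 2-fold. The calculations were checked on simulated data. For shares of cells with a UMI, cells were thinned to 2000 UMIs and shallower ones left out. Cartilage cells, used as background, had 2 or more UMIs of *Comp* or *Acan* and none of *Ptprc* or *Cd3*.

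Named genes came from fixed lists, plus the 15 highest and 15 lowest in Tregs against CD4 T cells and the 10 highest and 10 lowest in ACD against control Tregs. The members, the lists and the splits were chosen with earlier results of these data known, and they give no independent support. Gene coordinates are from the GENCODE M21 annotation of GRCm38 and promoter sequences from RefSeq. Some genes of the lists are not reported here.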

Additional observations from a re-analysis of the deposited data

Results flagged for a closer look

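*Coch*, the gene of a matrix protein known from the inner ear, differed in opposite directions between the libraries in Tregs and in CD4 T cells. The log2 ratio of ACD to control, with 50 added to each level, was -2.91 in Tregs and 2.24 in CD4 T cells, and the difference between the groups was not tested. Of the 60 *Coch* UMIs of control Tregs 57 lay in 1 cell, and of the ACD CD4 T cells' UMIs 337 lay in 1 cell.

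Cells outside the Treg choice also held *Foxp3*. In ACD skin 14 kept cells held *Foxp3* together with *Cd3* and *Cd8* UMIs, beside 1 in control. Of the 14, 12 held *Ctla4*, 13 *Ikzf2*, 8 *Izumo1r*, 8 *Cd4*, 9 *Gzmb* and 7 *Ifng*, at a median of 9761 UMIs per cell beside 5140 for ACD Tregs. A further 17 kept ACD cells and 7 control cells held *Foxp3* and no *Cd3* UMI.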

How the results depend on the processing

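For each gene, an alternative was counted only where both groups held UMIs of it. Of 60 named genes that differed at least 2-fold between Tregs and CD4 T cells in ACD, 53 kept their direction under every alternative counted. Of these 60, 44 stayed 2-fold apart. Of 39 such genes between ACD and control Tregs, 32 kept their direction and 16 stayed 2-fold apart. Alternatives that left a gene at 0 in control Tregs are thus missing from these counts. *Prss23*, without the richest cell of each library, was at 0 in control Tregs and 16.5 in ACD Tregs.

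With *Foxp3* at 2 or more UMIs (7 control and 184 ACD Tregs), 288 genes were higher and 148 lower in ACD Tregs, the share ratio was 4.78 (log2), immediate-early medians were -0.031 against CD4 T cells and -0.9996 against control, and *Ikzf2*, *Klrg1* and *Ifng* were in 74.4%, 14.4% and 5.56% of ACD Tregs. The log2 ratios of ACD to control were then 0.00042 for *Cxcr4*, 0.63 for *Tnf* and -0.11 for *Gbp5*, and *Krt15* was at -2.55 against CD4 T cells. With the *Cd3* and *Cd4* limits of the CD4 group (8 and 190 Tregs), 242 genes were higher and 164 lower in ACD Tregs, the share ratio was 4.64, the immediate-early median against CD4 T cells was -0.19, the cell cycle median against control 1.05, *Ifng* and *Il10* were in 5.35% and 3.74%, *Ikzf3* was at 0.67 against control and *S100a9* at -0.30 against CD4 T cells. Over *Cd3* and *Ptprc* cells the share ratios were 1.88 and 1.79.

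On all barcodes the cell cycle median against CD4 T cells was -0.22, with *Ctla4* in 72.2% and *Ikzf2* in 74.1%. Without Scrublet calls 98 genes were higher in ACD Tregs, *Spp1* was at -0.27 and *Angptl7* at 2.83 against control. Without cells of over 1% other-lineage UMIs, immediate-early medians were -0.052 and -1.09, *Areg* was in 24.2% and *Ikzf2* in 73.9%, *Spp1* was at -1.59 against control, and against CD4 T cells *Spp1* was at -1.15, *Coch* at 0.49, *Angptl7* at -0.028, *Chil1* at -0.49 and *Krt15* at -1.12. With the richest cell left out, *Ikzf3* was at 0.052 and *Angptl7* at 3.91 against control, and *Ccl21a* at -0.021 and *Krt15* at -0.17 against CD4 T cells. As a mean over cells, *Penk* was at 0.020 against control.

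In sums of thinned cells (2000 UMIs), 73 genes were lower against CD4 T cells and 149 higher against control, the suppressive median was -0.19, the cytokine median -2.36 and *Ikzf3* against control 0.11. With median-of-ratios size factors 35 genes were lower in ACD Tregs, the immediate-early median against CD4 T cells was 0.044 and the heat-shock median -0.24. With 1 added to levels, 258 genes were higher and 222 lower against CD4 T cells, 647 higher and 421 lower against control, and the cytokine median was -2.85. With 10 added, 412 were higher and 285 lower against control. Without Treg-marked cells in the CD4 group, a setting chosen after seeing the data, 169 genes were higher in Tregs and the identity median was 1.57. Thinned to 1000 UMIs, *Ctla4* was in 56.5%, *Ikzf2* 51.0%, *Gzmb* 33.9%, *Izumo1r* 16.0%, *Areg* 13.2%, *Klrg1* 7.16%, *Mki67* 5.23% and *Il10* 3.03% of ACD Tregs. Each thinning is a new random draw. Except where an alternative's own make-up shows it (fewer cells, less held back at low levels), the cause of these shifts was not tested.

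No paired analysis was possible because each condition has 1 library. Nothing here measures the spread between animals, and the 26 control Tregs limit every comparison of the libraries. Genes under about 3 control UMIs have ratios with very wide intervals. Depth limits *Foxp3* itself, so Tregs without a captured *Foxp3* UMI are missing from the members and any that hold *Cd4* fall into the CD4 group.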
